A study of Xenopus laevis with 16 samples.

Results

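The response to cycloheximide, a drug that blocks protein synthesis, was measured in animal caps of Xenopus laevis that carried hormone-inducible Pax3. Animal caps are the ectoderm cut from the top of a blastula, which forms epidermis when cultured alone. Caps with the drug were set against caps without it, 3 biological replicates each, paired by replicate number. These 6 samples are among 16 arrays of 15 biological samples in 5 groups of 3. Embryos of both groups had received, when they had 2 to 4 cells, Pax3 fused to the glucocorticoid receptor, written Pax3-GR, and caps were cut at stage 9. Both groups were induced with dexamethasone for 2 h from stage 10.5. The drug group had cycloheximide at 0.1 mg/ml from stage 10, 30 min before the hormone, and the drug stayed in the medium. Caps were lysed when intact embryos of the same age were at stage 11.5 to 12, during gastrulation. The temperatures given are 15 °C for growth and 23 °C for treatment, the same for all groups. The other groups were caps neither injected nor treated, called control caps here, and caps with Pax3-GR and Zic1-GR, induced, without and with cycloheximide. No group had cycloheximide without an injected factor, or injection or dexamethasone alone. A direct action of the drug on a transcript and the loss of a step downstream of Pax3 that needs new protein therefore cannot be told apart in this comparison. Nor, in bulk explants, can fewer cells of a type and less RNA per cell.

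Cycloheximide stops ribosomes during elongation. A transcription factor fused to the glucocorticoid receptor waits in the cytoplasm and enters the nucleus on adding dexamethasone, which needs no new protein, and the drug is added in such designs to separate first from later targets. In cultured cells, blocking translation is also known to raise many short-lived mRNAs, those of immediate early genes first, since their decay and the repressors that shut them off depend on ongoing translation. Genes of the endoplasmic reticulum (ER) answer to the load of newly made secretory protein through the unfolded protein response. Gastrula ectoderm at this age is choosing between epidermis, neural plate and the neural plate border, where Pax3 acts, under BMP, Wnt, FGF, Notch and nodal signals.

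Values are log2 expression per probe set, given in the order of replicates 1, 2 and 3 unless a range is stated, and changes are log2 differences of group means, drug minus none, ± SE with n = 3 per group. All 15 samples were fitted in one limma model with the replicate number as a block, and a probe set was called at a Benjamini-Hochberg adjusted p under 0.05 over 32539 probe sets. With group means removed, Pax3 samples with and without the drug that shared a number correlated at 0.811 to 0.84 across probe sets, and samples of different numbers at -0.285 at most. What remains then sums to 0 within each group, so the negative correlations follow from the positive ones and are no separate evidence of pairing. Log2 levels under 3 are near the lower end of the scale, no detection call was used, and the size of a change that starts or ends there is given as measured on that scale. Where a call given with its SE is lost without the block, the adjusted p of that fit is given as unblocked. Calls given without an SE do not always carry that value, and its absence there does not mean that the call was kept. The defining genes of animal cap ectoderm were high in both groups, with a mean of 8.41 to 9.04 in Pax3 caps and 8.28 to 8.89 with the drug over 19 markers. Of these, tp63.L (1.94 and 2.08) and tp63.S (2.61 and 2.49) were near the lower end of the scale. Single ectoderm markers moved both ways: 2 rose and 4 fell, with a median change of -0.09. Mesoderm markers were low, with means of 2.80 to 3.26 and 2.86 to 3.74 over 13 markers, and the 7 germ plasm markers gave 4.71 to 5.25 and 4.84 to 5.44. The 13 endoderm markers were higher as a set with the drug: their summed level was 55.5 to 68.2 in Pax3 caps and 69.2 to 77.3 with cycloheximide, 7 rose, 1 fell, and the median change was 1.13. The 3′ minus 5′ signal of the actin control probe sets was 9.89 to 10.11 without and 9.79 to 10.06 with the drug. These differences span most of the scale, so they cannot show equal RNA integrity. For the ef1a control probe sets the signal was -0.86 to -0.30 without and -0.47 to -0.20 with the drug, and the ranges overlapped. That of the TrpnX spike probe sets did not overlap, at -0.29 to -0.17 and -0.57 to -0.44.

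Signals for pax3 itself came first among the values examined. On 1 pax3.S probe set they were 5.6, 6.28 and 5.85 in Pax3 caps and 5.36, 6.74 and 6.69 with cycloheximide, against a mean of 1.94 ± 0.39 (SD, n = 3) in control caps. The groups overlapped, and the change of 0.36 ± 0.20 was not called (adjusted p = 0.292). The other pax3.S probe set gave 0.43 ± 0.21 (adjusted p = 0.212). Of the 5 pax3.L probe sets, 1 rose, from 5.02, 6.06 and 4.86 to 6.55, 7.43 and 6.26 (1.44 ± 0.25, adjusted p = 0.00554, unblocked 0.283). Like the pax3.S probe sets it was low in control caps, at a mean of 1.62 ± 0.31 (SD, n = 3), and higher in Pax3 caps. The other 4 pax3.L probe sets were not called, at -0.37 to 0.42, and the mean of each in Pax3 caps (2.00, 6.56, 9.88 and 10.28) was below its mean in control caps (2.27, 6.90, 10.07 and 10.62). No label says which of them match the injected construct. The partner gene zic1 was not injected in these caps: its zic1.S probe sets rose by 0.71 ± 0.15 (adjusted p = 0.0149, unblocked 0.613) and by 1.05 ± 0.24 (adjusted p = 0.0188, unblocked 0.149).

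Of all 32539 probe sets, 3412 were called, which is 10.5%: 1778 were higher with cycloheximide (5.46%) and 1634 lower (5.02%). All but 1 of the called probe sets moved the same way in 3 of 3 replicate numbers. Counting 1 probe set per gene symbol, 772 of 11303 symbols rose (6.83%) and 632 fell (5.59%), which is the background for every gene list that follows. The rises were the larger changes: of the 811 called probe sets that changed by at least 1 (2.49%), 533 rose (1.64%) and 278 fell (0.854%). The 3 drug samples and the 3 others did not overlap for 5386 probe sets (16.6%), and for 2087 of those called. The number of calls rests on the pairing and on every sample. Without the block 283 probe sets were called (0.87%), 164 higher and 119 lower, all of them among the 3412. Samples of the Pax3 caps were also left out, singly or both of a replicate number, with the other groups kept whole. The count was then 602 (without replicate 3) to 2085 (without the drug sample of replicate 1). It was 644 and 1024 without replicates 2 and 1. The 3 Pax3 samples left out in turn gave 1496, 1439 and 1366, and the drug samples of replicates 2 and 3 gave 1342 and 1560.

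The 2 largest rises were those of Hes genes, which encode short-lived transcriptional repressors that are targets of Notch signalling and shut off their own promoters. hes7.1.L was at 5.65, 7.73 and 6.01 in Pax3 caps and at 10.79, 10.51 and 9.92 with cycloheximide, a rise of 3.94 ± 0.38 (adjusted p = 0.000369). hes7.2.L went from 2.87, 4.98 and 3.29 to 6.40, 7.80 and 8.53 (3.86 ± 0.56, adjusted p = 0.00223), and hes5.2.L from 2.96, 3.43 and 2.69 to 6.56, 6.65 and 5.05 (3.06 ± 0.34, adjusted p = 0.000601). In each the lowest drug sample lay above the highest Pax3 sample. This had to be so, since the largest rises were picked among probe sets whose groups do not overlap. Replicate 2 was the highest of the Pax3 caps for all 3 genes. All 3 were called without the block too. The related esr-5.L rose by 2.54 ± 0.48 (adjusted p = 0.00821, unblocked 0.0694), hes1.S by 2.37 ± 0.25 (adjusted p = 0.000486, unblocked 0.0653) and hes4.S by 1.82 ± 0.27 (adjusted p = 0.00223, unblocked 0.171). Of 41 genes of the Notch pathway and Hes family 10 rose and 0 fell, and the median change of the list was 0.10 against -0.03 for all symbols. Without 1 sample or number 7 to 10 rose, and 5 without the block. The risers were not the whole family: hes5.7.L was at 0.02 and hes5.3.L at -1.16, neither called, and the receptor gene notch1.S (0.45) and the nuclear partner rbpj.S (0.50) were not called. Among the rest of the pathway, both copies of the Fringe glycosyltransferase gene lfng rose (lfng.L 1.58, lfng.S 1.76), as did the ligand gene dll1.L (1.25). Of these lfng.S and dll1.L were called without the block too (lfng.L unblocked adjusted p = 0.0626). The last 7 genes were chosen after their values were seen. Other probe sets of hes7.1.L rose by 2.03 and 1.05 (unblocked adjusted p = 0.38 and 0.643). Another of hes7.2.L was at 0.76 and not called (adjusted p = 0.202).

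**Figure D1:**
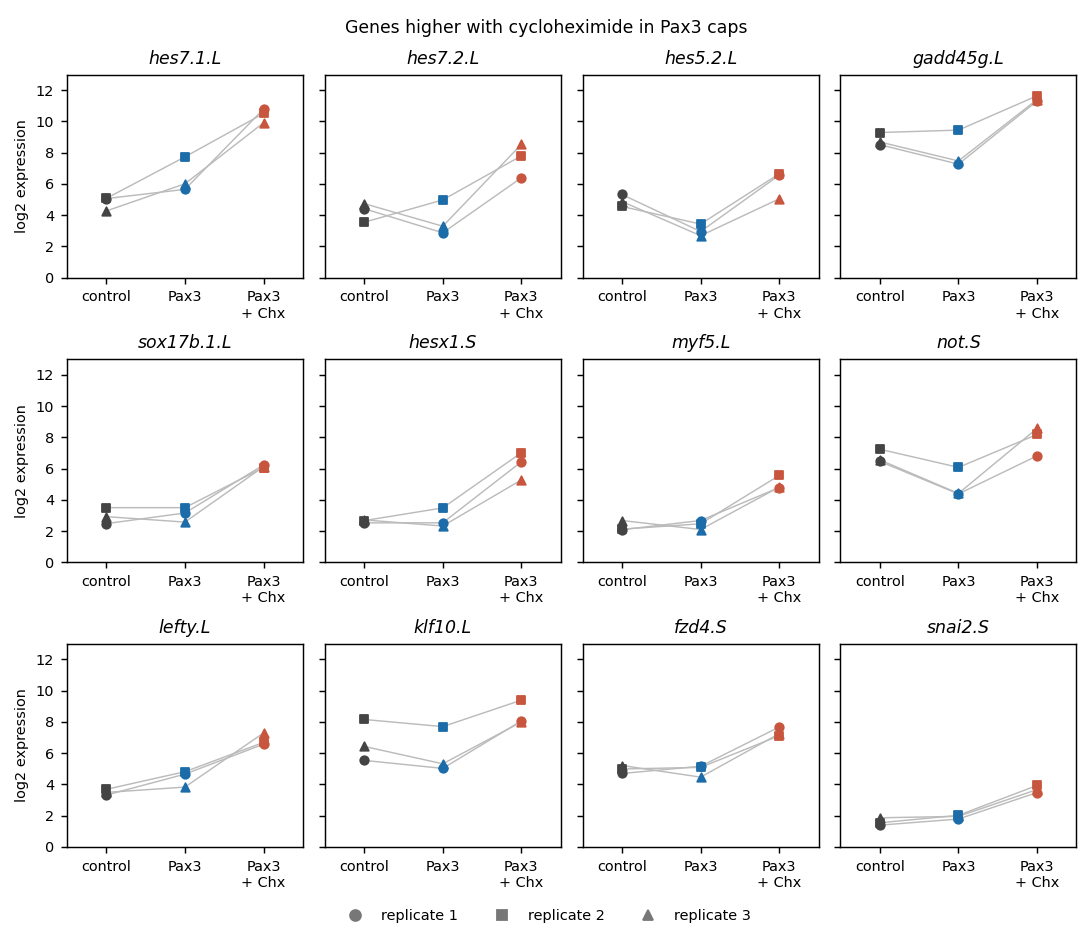
Log2 expression of 12 genes that rose with cycloheximide, in control caps, Pax3 caps and Pax3 caps with the drug (Chx); each point is 1 sample, the shape gives its replicate number, and lines join samples of one number. The 3 drug samples lie above the 3 Pax3 samples in every panel, and for hes7.1.L they lie at 9.92 to 10.79 against 5.65 to 7.73.

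Immediate early genes and other mRNAs that cycloheximide is known to superinduce in cultured cells were the next group. Of the 71 measured, 25 rose, 2 fell and 44 were not called, with a median of 0.54. The growth arrest gene gadd45g rose in both genome copies. gadd45g.L was at 7.27, 9.44 and 7.47 without and at 11.31, 11.64 and 11.40 with the drug (3.39 ± 0.37, adjusted p = 0.000555). gadd45g.S rose by 3.37 ± 0.33 (adjusted p = 0.000399). The drug samples of both copies lay within 0.5 of each other, while replicate 2 stood high among the Pax3 samples. klf10, a repressor induced by TGF-beta, rose by 2.63 ± 0.38 (klf10.S, adjusted p = 0.00205, unblocked 0.307) and 2.47 ± 0.24 (klf10.L, adjusted p = 0.000395, unblocked 0.284). klf10.S was at 3.86, 6.77 and 3.64 without and at 7.1, 8.14 and 6.93 with the drug, so that replicate 2 without the drug came close to the drug samples.

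Feedback inhibitors of signalling rose with them, namely socs3.L (2.34) and socs3.S (1.80), which restrain cytokine receptors, and nfkbia.S (1.86) and nfkbia.L (1.61), which hold NF-kappaB in the cytoplasm. Without the block both nfkbia copies were still called and both socs3 copies were not (adjusted p = 0.515 and 0.488). The AP-1 genes were not called, with changes near the median of the list: fos.S was at 0.48, jun.L at 0.58 and junb.L at 0.70. myc.L was at -0.30 and not called. These 8 genes were chosen after their values were seen. The genes that fell were zfp36.L, from 4.37, 6.0 and 5.18 to 2.51, 3.93 and 4.08 (-1.68 ± 0.21, adjusted p = 0.00101, unblocked 0.266), and btg1.L (-0.68 ± 0.19, adjusted p = 0.0468, unblocked 0.344). ZFP36 is a protein that binds AU-rich mRNA and speeds its decay. Its relatives moved the other way: zfp36l1.S rose by 1.1, zfp36l2.L by 1.09 and zfp36l2.S by 0.96 (unblocked adjusted p = 0.165, 0.462 and 0.0928). Without 1 sample or number 14 to 24 genes of the list rose, and 9 without the block.

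Some genes first switched on in the blastula, and some of the endoderm, rose in caps of ectodermal origin, while most members of both lists were not called. sox17b.1.L, an HMG box regulator of endoderm, was at 3.16, 3.50 and 2.57 in Pax3 caps and at 6.23, 6.07 and 6.12 with cycloheximide (3.06 ± 0.23, adjusted p = 9.21e-05). Control caps, at 2.97 ± 0.51 (SD, n = 3), were as low as Pax3 caps. The other copy behaved differently before the drug: sox17b.1.S was at 3.79 in control caps, at 7.19, 8.93 and 5.83 in Pax3 caps and at 9.87, 10.26 and 9.06 with the drug (2.42 ± 0.56, adjusted p = 0.021, unblocked 0.31). sox17a.S rose by 1.85 ± 0.47 (adjusted p = 0.0307, unblocked 0.29). gata4.L, a GATA factor of endoderm and heart, went from 3.02, 2.94 and 2.78 to 5.31, 5.28 and 5.76 (2.54 ± 0.39, adjusted p = 0.00311, unblocked 0.0506). Its 2nd probe set was at 0.09 and not called. Another GATA gene went the other way: gata6.L was at 5.07, 5.66 and 6.1 and fell to 3.3, 3.96 and 4.63 (-1.65 ± 0.26, adjusted p = 0.00317, unblocked 0.231), and foxa1.S, a forkhead factor, fell by 1.11 ± 0.25 (adjusted p = 0.0202, unblocked 0.469).

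Of 42 endoderm genes 9 rose and 2 fell, with a median of 0.44; without 1 sample or number 3 to 7 rose, and 1 without the block. Of 54 earliest zygotic genes 15 rose and 0 fell, with a median of 0.46 (5 to 13 without 1 sample or number, 6 without the block). Of these 54 genes 47 are on another list too. The 13 endoderm markers above, 10 of them of the Sox17 and Gata families, moved with these lists: the summed level was 40.8 to 53.1 in control caps, 55.5 to 68.2 in Pax3 caps and 69.2 to 77.3 with the drug, foxa2.L was near the lower end of the scale (2.28 and 3.18), and their part in the result was not tested. The replicates were unequal here. The median change of the zygotic list was 0.24 and 0.15 in replicates 1 and 2 and 1.5 in replicate 3, and that of the endoderm list was 0.36, 0.00 and 0.99. The nodal and activin pathway, which induces mesoderm and endoderm, had 6 rises and 0 falls among 40 genes, with a median of 0.30 (1 to 5 rises without 1 sample or number). The nodal antagonist lefty.L went from 4.66, 4.81 and 3.83 to 6.58, 6.69 and 7.29 (2.42 ± 0.40, adjusted p = 0.00464). The ligand nodal.L went from 2.19, 2.31 and 1.93 to 4.69, 5.41 and 3.55 (2.41 ± 0.63, adjusted p = 0.0346, unblocked 0.122), from near the lower end of the scale. tdgf1.3.L, a nodal co-receptor gene, rose by 1.47 ± 0.38 (adjusted p = 0.0319, unblocked 0.326). nodal1.L (-0.08), nodal6.L (-0.05) and mix1.L (0.38), named after their values were seen, were not called.

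Among 78 mesoderm and muscle genes 7 rose and 1 fell, with a median of 0.06 (2 to 5 rises without 1 sample or number, 1 without the block). That share of rises, 8.97%, was near the 6.83% of all symbols, so the genes below are single cases. The notochord homeobox gene not rose in both copies. not.S was at 4.38, 6.08 and 4.41 in Pax3 caps and at 6.81, 8.18 and 8.57 with the drug (2.90 ± 0.40, adjusted p = 0.00178, unblocked 0.054), and not.L rose by 1.48 ± 0.31 (adjusted p = 0.0127, unblocked 0.327). myf5.L, a myogenic bHLH factor, went from 2.67, 2.47 and 2.10 to 4.79, 5.56 and 4.82 (2.64 ± 0.37, adjusted p = 0.00186), again from near the lower end. The pan-mesodermal gene tbxt was not called in either copy (tbxt.L -0.16, tbxt.S 0.32), nor was myod1 (myod1.L 0.94, myod1.S -0.73), and both were named after their values were seen. gata1.S fell by 0.47 ± 0.11 (adjusted p = 0.0196, unblocked 0.101) at a level of 2.22 to 2.79, near the lower end of the scale.

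Neural plate border genes, the territory in which Pax3 works with Zic1, rose in 13 of 37 cases and fell in 0, with a median of 0.60, and 4 to 9 rose without 1 sample or number (3 without the block). prdm1.S, a border and crest regulator, rose by 1.86 ± 0.34 (adjusted p = 0.00739, unblocked 0.0909), and 2 other probe sets of it by 1.89 and 2.29 (unblocked adjusted p = 0.107 and 0.0359). klf17.L went from 7.75, 8.51 and 7.28 to 9.46, 9.64 and 9.99 (1.85 ± 0.36, adjusted p = 0.00964). axin2.L, a feedback inhibitor and standard readout of Wnt signalling, went from 6.48, 6.27 and 5.88 to 8.34, 7.87 and 7.35 (1.65 ± 0.18, adjusted p = 0.000564). The groups were apart for both genes. Neural crest specifiers rose in 7 of 34 cases and fell in 0, with a median of 0.37 (1 to 6 without 1 sample or number, 1 without the block). snai2.S, the Slug gene of crest delamination, was at 1.79, 2.02 and 1.96 in Pax3 caps and at 3.48, 3.94 and 3.67 with the drug (1.77 ± 0.15, adjusted p = 0.000154), from a level near the lower end of the scale. snai2.L rose by 1.33 ± 0.33 (adjusted p = 0.0273, unblocked 0.468), kctd15.L by 1.3 and ets1.L by 1.15 (unblocked adjusted p = 0.251 and 0.335). kctd15.L was below control caps without the drug, at 6.94, 8.32 and 6.97 against a mean of 8.74. sox9.L (0.09), sox10.L (0.09) and foxd3.L (0.83), named after their values were seen, were not called.

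On the list of neural plate and neuronal genes, 11 of 50 rose and 1 fell, with a median of 0.25 (3 to 9 rises without 1 sample or number, 5 without the block). hesx1.S, a homeobox repressor of the forebrain and pituitary, went from 2.53, 3.48 and 2.32 to 6.43, 7.02 and 5.27 (3.46 ± 0.39, adjusted p = 0.000652). otx1.L rose by 1.82 ± 0.19 (adjusted p = 0.00045). otx2, a head organizer gene, rose by 1.6 ± 0.34 (otx2.L, adjusted p = 0.0136, unblocked 0.502) and 1.48 ± 0.28 (otx2.S, adjusted p = 0.00819, unblocked 0.331). nkx6-2.L rose from 5.4, 5.04 and 4.2 to 6.58, 7.29 and 6.31 (1.85 ± 0.30, adjusted p = 0.00372). pou4f4.S, a POU homeobox gene, went from 2.99, 4.01 and 2.69 to 6.09, 7.55 and 4.76 (2.90 ± 0.41, adjusted p = 0.0018, unblocked 0.0536). The gene that fell was dbx1.S, described with the genes that stood higher in Pax3 caps than in control caps. Of 26 preplacodal and placode genes 4 rose and 0 fell, with a median of 0.16 (0 to 4 without 1 sample or number). foxi4.2, an ectodermal forkhead gene of the preplacodal region, rose by 2.51 ± 0.41 (foxi4.2.L, adjusted p = 0.00412) and 1.78 ± 0.31 (foxi4.2.S, adjusted p = 0.0059). sall4.L rose by 0.81 and irx1.S by 0.60 (unblocked adjusted p = 0.87 and 0.131). Of 25 hox genes 0 were called with the block or without it, with a median of -0.04.

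Pluripotency and blastula factors rose in 10 of 37 cases and fell in 1, with a median of 0.68 (1 to 7 rises without 1 sample or number, 2 without the block). Of these 37 genes 35 are on another list too. klf2.S went from 6.84, 7.35 and 5.43 to 8.70, 9.02 and 8.11 (2.07 ± 0.43, adjusted p = 0.0133, unblocked 0.249). foxi1.L, the ionocyte regulator, was nearly the same in the 3 Pax3 samples, at 10.00, 10.08 and 10.02, and rose to 11.42, 11.43 and 12.07 (1.61 ± 0.21, adjusted p = 0.00121). ventx1.2.S, a BMP target of the ventral side, rose by 1.68 ± 0.42 (adjusted p = 0.0288, unblocked 0.329), and the groups overlapped. lin28a.S, which encodes an RNA-binding protein that blocks let-7, fell by 0.56 ± 0.16 (adjusted p = 0.0449, unblocked 0.687).

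Signalling pathways showed the same balance of rises over falls. Of 61 BMP pathway genes and targets 10 rose and 1 fell, with a median of 0.35 (1 to 7 rises without 1 sample or number, 1 without the block). The ligand gene bmp4 rose in both copies, bmp4.S from 8.67, 9.44 and 8.87 to 10.20, 10.59 and 10.85 (1.55 ± 0.24, adjusted p = 0.00285) and bmp4.L by 1.29 ± 0.24 (adjusted p = 0.00787, unblocked 0.08). The inhibitory Smad gene smad7.L rose by 1.24 ± 0.25 (adjusted p = 0.012, unblocked 0.108). bmp7.1.L was the gene that fell (-0.73 ± 0.21, adjusted p = 0.0494, unblocked 0.698). Of 67 Wnt pathway genes 11 rose and 1 fell, with a median of 0.13 (3 to 9 rises without 1 sample or number, 4 without the block). The receptor gene fzd4.S went from 5.16, 5.09 and 4.47 to 7.67, 7.12 and 7.25 (2.44 ± 0.22, adjusted p = 0.00019), and wnt5b.S and dact1.L rose by 1.55 and 1.12 (unblocked adjusted p = 0.1 and 0.114). rspo2.L, a secreted Wnt enhancer, fell by 1.43 ± 0.39 (adjusted p = 0.0384, unblocked 0.506). Of 42 genes of FGF signalling and MAP kinase feedback 9 rose and 0 fell, with a median of 0.07 (5 to 9 without 1 sample or number, 2 without the block). The receptor gene fgfr4 rose in both copies (fgfr4.S 1.55 ± 0.21, adjusted p = 0.00155; fgfr4.L 1.17 ± 0.12, adjusted p = 0.000536), and fgfr2.L rose by 1.59 ± 0.22 (adjusted p = 0.00163, unblocked 0.294).

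The retinoic acid pathway had 10 rises and 2 falls among 27 genes, with a median of 0.47 (4 to 8 rises without 1 sample or number, 1 without the block). cyp26c1.S, an enzyme that degrades retinoic acid, went from 2.55, 3.56 and 2.32 to 4.59, 6.49 and 3.59 (2.08 ± 0.51, adjusted p = 0.0251, unblocked 0.273). Other cyp26c1.S probe sets, at lower levels, were at 0.64 and 0.17 and not called. dhrs3.L, which reduces retinal back to retinol, rose by 1.59 ± 0.26 (adjusted p = 0.00377, unblocked 0.165). Both enzymes lower retinoic acid. tgif2.L and tgif2.S, corepressors of TGF-beta and retinoid signalling, rose by 2.11 ± 0.36 and 1.78 ± 0.27 (adjusted p = 0.00544 and 0.00287, unblocked 0.0786 and 0.103). Another tgif2.L probe set rose by 2.48 (unblocked adjusted p = 0.0602). The retinol dehydrogenase gene rdh10, which works in the making of retinoic acid, split: rdh10.L fell by 0.66 ± 0.17 (adjusted p = 0.0298, unblocked 0.513), while rdh10.S rose by 0.85 (adjusted p = 0.00275, unblocked 0.38).

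Further genes among the 20 largest rises belong to no single list. The kinase gene sbk1l.L went from 2.51, 3.11 and 2.13 to 5.65, 6.68 and 6.34 (3.64 ± 0.33, adjusted p = 0.000227) on 1 probe set. All other sbk1l.L probe sets were at -0.73 to 1.28 and not called, with the brightest at 0.12. apln.L, which encodes the peptide ligand apelin, went from 4.61, 5.91 and 4.51 to 7.40, 7.85 and 8.59 (2.94 ± 0.43, adjusted p = 0.00225). The Ras-like gene rasd1, known in mammals as induced by dexamethasone, went from 5.78, 6.71 and 4.52 to 8.25, 8.66 and 8.44 (2.78 ± 0.35, adjusted p = 0.00106). Both groups had dexamethasone, and control caps without it were at 6.72. A brighter rasd1 probe set, at a mean of 7.63 in Pax3 caps, rose by 1.64 (adjusted p = 0.0291, unblocked 0.548). pdk4.S, a mitochondrial kinase that restrains pyruvate use, rose by 2.56 ± 0.30 (adjusted p = 0.000807) and the adaptor gene sh2d3c.L by 2.48 ± 0.29 (adjusted p = 0.000757). On the probe sets given with an SE all 5 were called without the block. Of the 20 largest rises 14 were, and of the 20 largest falls 4.

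Genes of the ER were the group with the largest share of falls. Of 52 genes of the unfolded protein response, ER chaperones and the translocon 32 fell, 0 rose and 20 were not called, with a median of -0.65. In 3 of 3 replicate numbers 47 of the 52 were below 0, and the medians were -0.50, -0.66 and -0.76. The disulphide isomerase gene pdia4.L was at 9.49, 9.53 and 9.41 in Pax3 caps and at 8.08, 8.18 and 7.13 with the drug (-1.68 ± 0.32, adjusted p = 0.00815). hspa5.L, which encodes the chief ER chaperone BiP, went from 9.67, 9.72 and 9.89 to 8.70, 8.57 and 8.34 (-1.22 ± 0.23, adjusted p = 0.00852). herpud1.S, a component of ER-associated degradation, went from 7.34, 7.44 and 7.63 to 6.13, 6.23 and 6.0 (-1.35 ± 0.22, adjusted p = 0.00392). The 3 Pax3 samples were close to each other and to control caps in these genes, and the drug samples lay below all of them. dnajb9.L, a BiP co-chaperone gene, fell by 1.64 ± 0.27 (adjusted p = 0.00408, unblocked 0.0671).

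Genes for the entry of proteins into the ER fell as well: the translocon gene sec61a1.S by 1.01, and subunits of the translocon-associated complex by 1.03 (ssr1.S), 1.02 (ssr3.S) and 0.84 (ssr2.S). Without the block sec61a1.S and ssr1.S were still called (ssr3.S and ssr2.S unblocked adjusted p = 0.0982 and 0.125). The transducer genes were not called on their brightest probe sets: xbp1.L was at -0.79 and atf6.S at -0.52, and edem1.L and sel1l.L, of ER-associated degradation, were at 0.22 and 0.33, while another sel1l.L probe set was at 0.79 and called. These 8 genes were chosen after their values were seen. Without 1 sample or number 7 to 27 of the list fell, and 10 without the block. Centring each array on the ribosomal protein genes left 18 falls and gave 2 rises, with a median of -0.35. Among the largest falls of all, ostc.L, a subunit of oligosaccharyltransferase, went from 5.94, 6.82 and 6.35 to 2.77, 4.17 and 2.95 (-3.07 ± 0.33, adjusted p = 0.000542). ssr4.S went from 5.28, 6.28 and 4.61 to 2.70, 3.05 and 2.08 (-2.78 ± 0.33, adjusted p = 0.00084). Probe sets of these genes differed in size: the other ostc.L probe sets fell by 2.29 and 0.90, and the brightest ssr4.S probe set, which stands for the gene in the list, by 0.34 (adjusted p = 0.0325, unblocked 0.309). Other genes of the secretory route among the 20 largest falls were rab3d.L, a Rab GTPase of secretory granules (-2.26 ± 0.30, adjusted p = 0.00149, unblocked 0.191), chpf.L, a chondroitin polymerizing factor (-1.89), and tmx4.L, an ER thioredoxin (-1.76). For the last pair the unblocked adjusted p was 0.0541 and 0.0975.

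**Figure D2:**
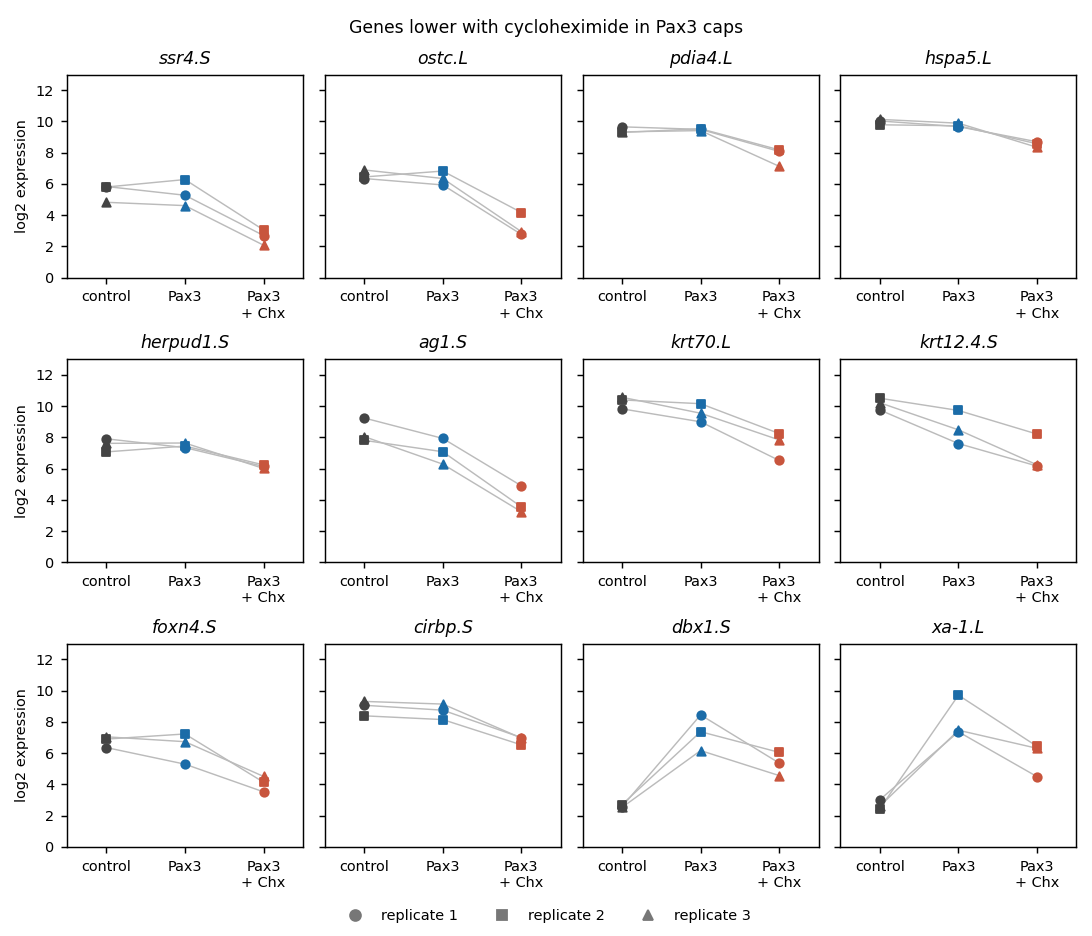
Log2 expression of 12 genes that fell with cycloheximide, in control caps, Pax3 caps and Pax3 caps with the drug (Chx); points are samples, shapes replicate numbers, and lines join samples of one number. The genes of the ER, such as hspa5.L, start at the same level in control and Pax3 caps and fall with the drug, while dbx1.S and xa-1.L are low in control caps, high in Pax3 caps and at levels in between with the drug.

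The fall with the lowest adjusted p of the named genes was that of ag1.S, a cement gland gene whose product is an anterior gradient protein of the secretory route. It was at 7.93, 7.08 and 6.28 in Pax3 caps and at 4.89, 3.55 and 3.23 with the drug. The change was -3.20 ± 0.17 (adjusted p = 7.64e-06), and a 2nd ag1.S probe set fell by 2.95 (unblocked adjusted p = 0.0536). The related agr2.L fell by 2.64 ± 0.57 (adjusted p = 0.0149, unblocked 0.1). Of 73 genes of epidermis and non-neural ectoderm 15 fell and 3 rose, with a median of -0.09 (3 to 9 falls without 1 sample or number, 2 without the block). Neither direction held for the list as a whole, since 55 members were not called. The keratin krt70.L went from 8.99, 10.15 and 9.54 to 6.52, 8.24 and 7.83 (-2.03 ± 0.47, adjusted p = 0.0212, unblocked 0.339), and krt12.4.S fell by 1.73 ± 0.41 (adjusted p = 0.0224, unblocked 0.52). The gene itln1.L, which encodes a secreted lectin of the epidermis, fell from 3.47, 5.8 and 6.93 to 2.55, 4.06 and 4.45 (-1.72 ± 0.39, adjusted p = 0.0182, unblocked 0.622). The groups overlapped for krt12.4.S and itln1.L. Regulators of multiciliated cells were among them: foxn4.S went from 5.3, 7.23 and 6.73 to 3.52, 4.14 and 4.51 (-2.36 ± 0.23, adjusted p = 0.000399, unblocked 0.08), and mcidas.S fell by 1.57 (unblocked adjusted p = 0.469). The cilium gene cfap161.L fell by 1.85 ± 0.36 (adjusted p = 0.0092, unblocked 0.143) and the plakin gene ppl.L by 1.99 ± 0.39 (adjusted p = 0.00987, unblocked 0.456). Other ppl.L probe sets were at -0.99 to -0.21 and not called. Early regulators of the same tissue were the 3 rises, foxi1.L and klf17.L above and grhl3.S, a Grainyhead factor (1.34 ± 0.34, adjusted p = 0.0313, unblocked 0.208). tp63.L, tfap2a.L (0.64) and dlx3.L (-0.51) were not called. mcidas.S, tfap2a.L and dlx3.L were chosen after their values were seen.

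Other large falls were scattered. cirbp.S, a cold-inducible RNA-binding protein gene, went from 8.75, 8.15 and 9.14 to 6.99, 6.53 and 6.97 (-1.85 ± 0.13, adjusted p = 5.51e-05). Its 4 other probe sets were at -0.15 to 0.21 and not called. A gadd45a.S probe set fell by 2.63 ± 0.21 (adjusted p = 0.000106, unblocked 0.116), while 3 others gave 1.11 to 1.43, of which 2 were called (unblocked adjusted p = 0.325 and 0.2315). anxa5.S fell by 1.77 and 1.69 in 2 probe sets (unblocked adjusted p = 0.338 and 0.491) and was not called in its 5 others. The assignment of these probe sets to 1 gene comes from the platform's annotation and was not tested. otogl2.L, an otogelin-like gene, fell by 1.86 ± 0.24 (adjusted p = 0.00113, unblocked 0.0961) and ppp1r3c.2.L, a subunit that directs a phosphatase to glycogen, by 1.86 ± 0.27 (adjusted p = 0.00213, unblocked 0.226). A brighter ppp1r3c.2.L probe set was at 0.29 and not called (adjusted p = 0.349).

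Genes of the translation machinery leaned downward by small amounts. Of 89 ribosomal protein genes 23 fell and 0 rose, with a median of -0.27 that ranged from -0.34 to -0.23 over replicates, and 86 were below 0 in 3 of 3 replicate numbers. By the probe set that stands for each gene, the largest were rpsa.L (-0.66 ± 0.14, adjusted p = 0.0129), rps6.L (-0.62), rps3a.L (-0.54) and rps12.L (-0.53). Their unblocked adjusted p was 0.584, 0.712, 0.304 and 0.405. Another rps12.L probe set, at a mean of 5.38 in Pax3 caps, fell by 0.93 (adjusted p = 0.000652). It was called without the block too (adjusted p = 0.0409). Of 78 translation factors 9 fell and 4 rose, with a median of -0.17. The rises were the larger changes: eif4a2.L, an RNA helicase of initiation, went from 8.30, 8.4 and 8.29 to 9.86, 9.45 and 9.44 (1.25 ± 0.13, adjusted p = 0.000543), and eif4h.L, pabpc4.L and eif4e3.L rose by 0.79, 0.67 and 0.64. eif3c.S (-0.48), eif2b1.L (-0.45), eif4e2.L (-0.44) and eif2s2.L (-0.40) fell. Of 20 aminoacyl-tRNA synthetase genes 4 fell and 0 rose (median -0.25): kars1.L (-0.51), rars1.S (-0.48), vars1.S (-0.32) and cars1.S (-0.32). Of 78 ribosome biogenesis genes 3 fell and 1 rose (median -0.15): gnl2.L (-0.48), utp18.L (-0.43) and nop10.S (-0.35), and rcl1.S at 0.75. That share of falls, 3.85%, was below the 5.59% of all symbols, so only the median of this list leaned downward. Except for eif4a2.L none of the genes named in this group passed without the block on the probe set that stands for it (adjusted p = 0.0993 to 0.775).

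The direction of these lists depends on the scale. The deposited values set each array's overall level, so a change is relative to all probe sets. Centring on the ribosomal protein genes instead moved the median of all probe sets from -0.03 to 0.27, and 8454 probe sets were then higher and 461 lower, so that rises were 94.8% of the calls against 52.1%. The medians of the translation factor, synthetase and biogenesis lists turned positive, to 0.13, 0.06 and 0.15, while that of the ribosomal list is set near 0 by this centring. Medians also turned positive for the heat shock list (0.13), the proteasome list (0.06), and the epidermal (0.22) and housekeeping (0.21) lists, whose medians were below 0 on the deposited scale. The same held for the splicing (0.19), nonsense-mediated decay (0.21), polyamine (0.25) and hox (0.26) lists. The ER list stayed negative. Without 1 sample or number 0 to 10 ribosomal protein genes, 0 to 2 translation factors, 0 to 1 synthetase genes and 0 biogenesis genes fell, fewer than the 23, 9, 4 and 3 called with all samples.

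Among genes of protein turnover and stress, the list of E3 ligases, ubiquitin and proteasome had 14 falls and 3 rises in 108 genes (median -0.24; 2 to 7 falls without 1 sample or number, 2 without the block). The E2 enzyme gene ube2s, which works with the anaphase-promoting complex, fell in both copies, ube2s.L from 8.02, 7.74 and 7.95 to 7.1, 6.91 and 6.69 (-1.01 ± 0.12, adjusted p = 0.000807) and ube2s.S by 1.00 ± 0.14 (adjusted p = 0.00218). The groups were apart in both copies, and both were called without the block. psmc2.L and ube2g2.L fell by 0.65 each, and psmc3ip.L, cul4b.S and ube2g1.S rose by 0.73, 0.58 and 0.43. Of these psmc3ip.L is counted in the list but does not encode a proteasome subunit. Of 30 heat shock genes 5 fell and 0 rose (median -0.17; 0 to 1 falls without 1 sample or number, 0 without the block), the largest being hsp90ab1.S (-0.64), hspa4.L (-0.40), hspd1.S (-0.37) and hsf1 (-0.37). None of these 9 smaller changes was called without the block (adjusted p = 0.15 to 0.795). Genes of the integrated stress response went the other way: 7 of 30 genes rose and 0 fell, with a median of 0.19 (4 to 9 without 1 sample or number, 2 without the block). ddit3.L, which encodes the stress factor CHOP, was at 2.30, 2.43 and 2.41 and rose to 4.17, 3.96 and 3.41 (1.47 ± 0.16, adjusted p = 0.000567), from near the lower end of the scale. The mTOR inhibitor gene ddit4.S rose by 1.37 ± 0.17 (adjusted p = 0.00113, unblocked 0.146), sesn2.S, a sestrin, by 1.29 ± 0.21 (adjusted p = 0.00408), and atf3.L by 1.27 ± 0.29 (adjusted p = 0.0182, unblocked 0.22).

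Of 114 cell cycle genes 17 rose and 2 fell, with a median of 0.14 (6 to 11 rises without 1 sample or number, 2 without the block). Among the rises named by size, rbl1.L, an Rb family gene, went from 6.11, 6.17 and 6.24 to 8.04, 7.59 and 8.48 (1.86 ± 0.20, adjusted p = 0.000515), and ccne2.L, cyclin E2, from 6.97, 7.23 and 6.70 to 8.96, 8.09 and 8.82 (1.66 ± 0.26, adjusted p = 0.00312). Another rbl1.L probe set, at a mean of 6.09 in Pax3 caps, rose by 0.56 (adjusted p = 0.0163, unblocked 0.515). The replication licensing gene cdc6 rose by 1.37 ± 0.40 (cdc6.S, adjusted p = 0.0494, unblocked 0.533) and 1.28 ± 0.15 (cdc6.L, adjusted p = 0.000799, unblocked 0.218). The falls were those of the mitotic genes cdk1.S (-0.72 ± 0.14, adjusted p = 0.00962) and ccnb3.L (-0.74 ± 0.13, adjusted p = 0.00657, unblocked 0.153). Of 35 genes of the p53 response and apoptosis 4 rose and 1 fell (median 0.12; 0 to 4 rises without 1 sample or number, 0 without the block). The cyclin-dependent kinase inhibitor gene cdkn1a.L went from 6.21, 5.75 and 5.62 to 7.3, 6.44 and 8.26 (1.47 ± 0.41, adjusted p = 0.0433, unblocked 0.159), with replicate 3 far above the other drug samples. mdm4.S and aen.L rose by 0.57 and 0.51 and perp.S fell by 0.38 (unblocked adjusted p = 0.457 to 0.603).

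Of 64 SR protein and splicing regulator genes 5 rose and 0 fell, near the background share, with a median of -0.11. The kinase gene clk2, which phosphorylates SR proteins, rose on the probe set that stands for each copy. clk2.L rose by 0.97 ± 0.16 (adjusted p = 0.00476, unblocked 0.116) and clk2.S by 0.84 ± 0.11 (adjusted p = 0.00113). Another clk2.L probe set, at a mean of 3.91 in Pax3 caps, fell by 0.50 (adjusted p = 0.0494, unblocked 0.568). srsf5a.L and rbm5.S rose by 0.66 and 0.65. Of 57 genes of mRNA deadenylation and decay 5 rose and 6 fell (median 0.06), with falls of pan2.L (-0.59) and pan2.S (-0.56), subunits of a deadenylase, and a rise of the deadenylase gene parn.L (0.84). Of 20 nonsense-mediated decay genes upf3b.S rose (0.59) and rbm8a.S fell (-0.31), and the median was -0.10. Of 14 genes of polyamine metabolism sat1.S, which drives polyamine breakdown, rose (0.97) and arg1.L fell (-0.77), with a median of -0.06. Of 45 maternal and germ plasm genes 3 rose, near the background share, and 1 fell (median 0.08): pou5f3.3.L (1.11), gdf1.S (1.02), rbpms2.L (0.56) and mzt1.S (-0.39). Of 89 adhesion, migration and matrix genes 9 rose and 1 fell, with a median of 0.04 (2 to 8 rises without 1 sample or number). adamts1.L, ackr3.L and epha4.S rose by 1.39, 1.16 and 1.14 (unblocked adjusted p = 0.197, 0.0562 and 0.267), and itga6.L fell by 0.48. Of 28 housekeeping genes 6 fell and 0 rose (median -0.10; 0 to 3 falls without 1 sample or number, 0 without the block), with gapdh.L at -0.72, slc35b1.L at -0.47, ppia.L at -0.42 and tubb.L at -0.40. The changes in these lists that are given without an SE were not called without the block (adjusted p = 0.0562 to 0.878).

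**Figure D3:**
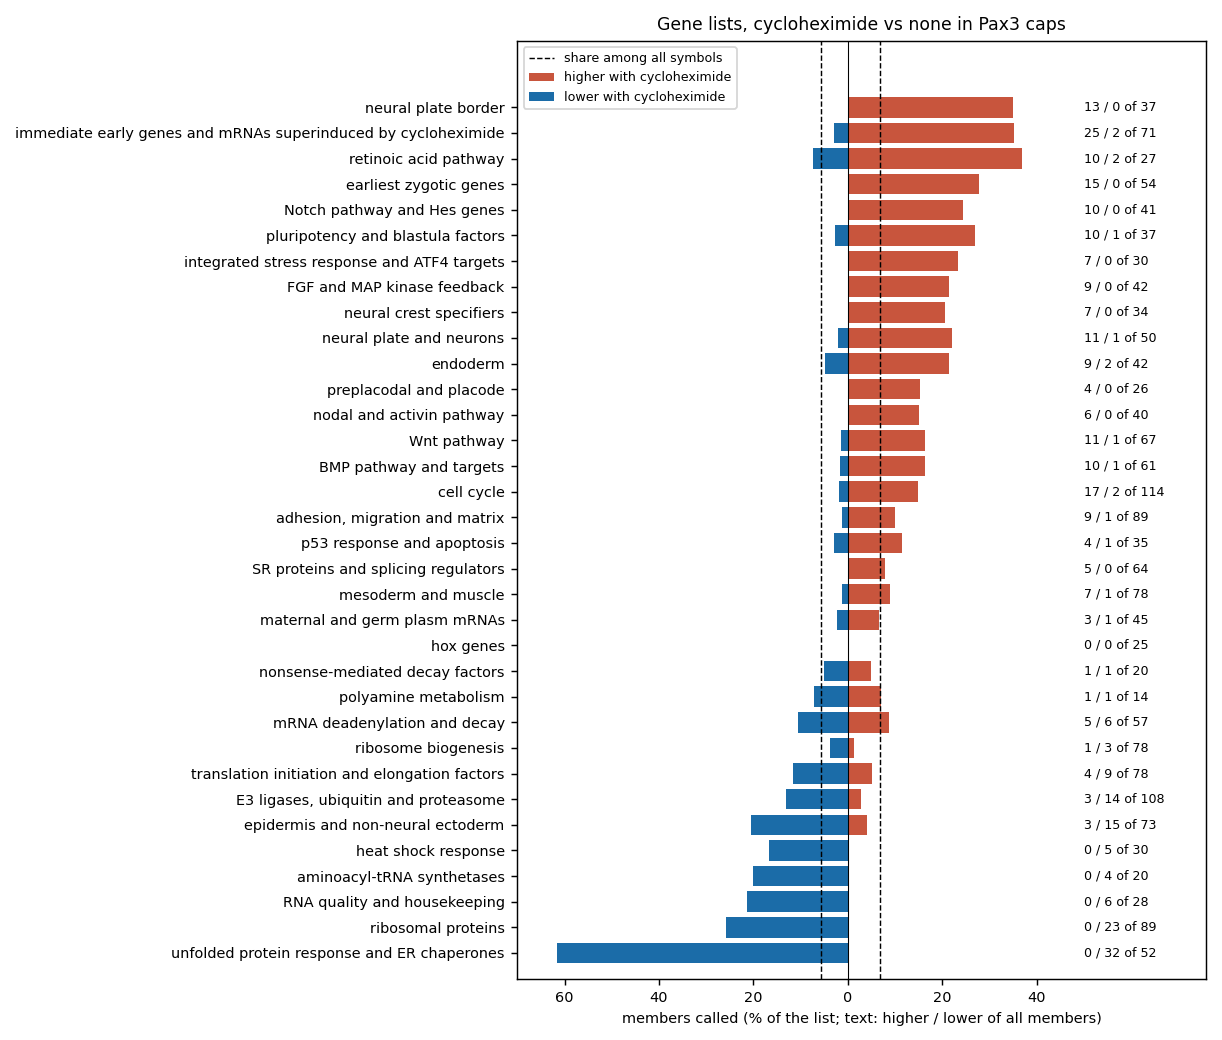
Share of each gene list that rose (right) or fell (left) with cycloheximide in Pax3 caps, in percent of the members measured, with the counts beside the bars; dashed lines give the shares among all symbols, 6.83% higher and 5.59% lower. The ER list has 61.5% of its members lower, and the border, immediate early and retinoic acid lists have 35.1%, 35.2% and 37.0% higher.

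Genes that stood higher in Pax3 caps than in control caps went both ways with the drug. Both comparisons use the same Pax3 samples, so their values are given side by side only. dbx1.S, a homeobox gene of spinal interneurons, was at 2.60 ± 0.10 (SD, n = 3) in control caps, at 8.45, 7.37 and 6.17 in Pax3 caps and at 5.37, 6.05 and 4.56 with the drug (-2.0 ± 0.45, adjusted p = 0.0184, unblocked 0.128). xa-1.L was at 2.69 in control caps, at 7.37, 9.71 and 7.47 in Pax3 caps and at 4.50, 6.43 and 6.31 with the drug (-2.43 ± 0.58, adjusted p = 0.0226, unblocked 0.262). cnrip1.L, at 3.26 in control caps, fell from 6.05, 5.5 and 6.57 to 3.41, 4.01 and 4.41 (-2.09 ± 0.50, adjusted p = 0.0227, unblocked 0.198). With the drug the means of these genes lay between those of control caps and Pax3 caps, and the drug samples of cnrip1.L overlapped control caps (2.80 to 3.49). astl2e.2.L, an astacin protease gene at 2.83 in control caps, fell by 1.84 ± 0.37 (adjusted p = 0.0118, unblocked 0.0993) to 2.65, 3.73 and 3.69, close to the control level. By contrast sox17b.1.S, nkx6-2.L and otx1.L, at 3.79, 2.59 and 6.92 in control caps and at means of 7.31, 4.88 and 8.25 in Pax3 caps, rose further with the drug, to means of 9.73, 6.73 and 10.07. For nkx6-2.L these are the values of the called probe set. Several genes with large rises stood lower in Pax3 caps than in control caps. hes5.2.L was at 4.92 in control caps and 3.02 in Pax3 caps, not.S at 6.75 and 4.95, and fgfr4.S at 10.15 and 8.98. With the drug they were at means of 6.09, 7.85 and 10.53.

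Xenopus laevis is an allotetraploid, and many of its genes have a .L and a .S copy with separate probe sets. Of 2009 pairs with a probe set for each copy, 443 had at least 1 copy called. In 63 pairs both copies rose, in 44 both fell, in 4 they were called in opposite directions and in 332 only 1 copy was called, of which 269 had the other copy on the same side of 0. The changes of the copies correlated at r = 0.641 across the 2009 pairs, which are not independent replicates. Probe sets of copies can share sequence, and cross-hybridisation was not tested. The copies opposed each other in rdh10, in the lipase gene liph (liph.L -0.89, adjusted p = 0.0298; liph.S 0.78, adjusted p = 0.00789), in mcrs1 (0.36 and -0.49 for .L and .S) and in taf9b (0.59 and -0.49). Copies that both rose could differ in size, as in hesx1 (hesx1.L 1.41, hesx1.S 3.46) and not. Among falls krt70.L was at -2.03 and krt70.S at -0.51, and rab3d.L at -2.26 and rab3d.S at -0.62. The 3 pairs beside rdh10, and hesx1.L, krt70.S and rab3d.S, were chosen after their values were seen.

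**Figure D4:**
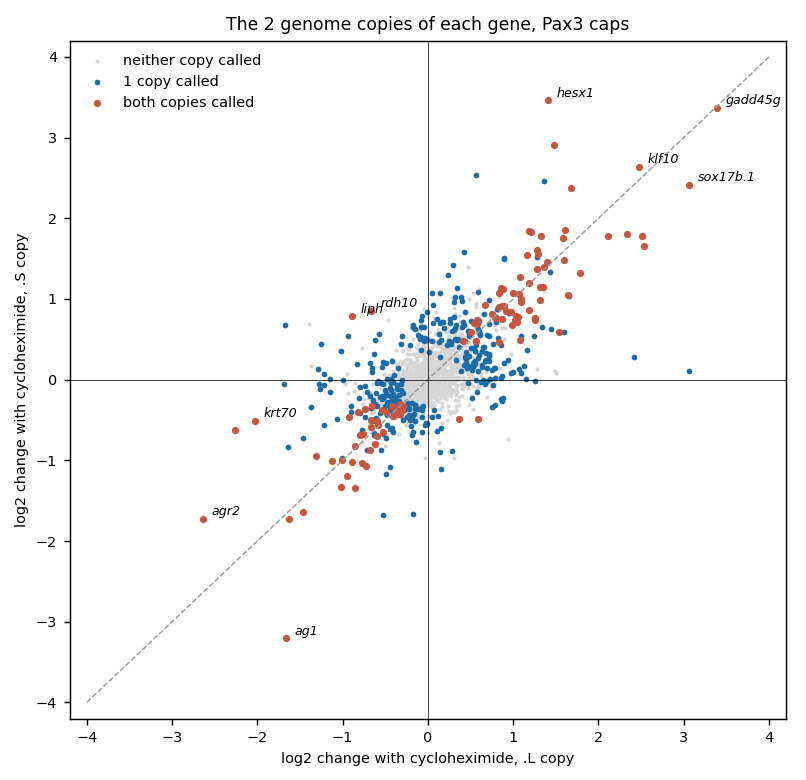
Log2 change with cycloheximide of the .L copy (x axis) and the .S copy (y axis) of 2009 genes in Pax3 caps, each point a gene, coloured by how many of its copies were called; the dashed line marks equal change. The 63 pairs that rose and the 44 that fell in both copies lie in the quadrants of equal sign, and rdh10 and liph lie in the quadrant where .L fell and .S rose.

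The caps injected with Zic1 as well as Pax3 give the same drug contrast in other samples, which share with these the replicate numbers and the joint processing. There 5344 probe sets were called (16.4%), 2595 higher (7.98%) and 2749 lower (8.45%). Of the 3412 called in Pax3 caps, 3389 changed in the same direction (99.3%), and 2614 were called in both, which is 76.6% of the Pax3 list and 48.9% of the other. Across all probe sets the changes correlated at r = 0.817, a description across features that share arrays and replicate numbers. In limma the difference between the drug effects was called for 0 probe sets, with the block and without it. Before adjustment 778 passed 0.05 (193 without the block), fewer than the 1627 expected by chance at that threshold. A difference was thus not detected at this number of arrays, which does not show that the effects are equal. Of the 20 largest rises 18 were called in Pax3 and Zic1 caps, and of the 20 largest falls 17. hes7.1.L rose there by 4.69, gadd45g.L by 4.18 and sox17b.1.L by 3.76, and ag1.S fell by 3.35. The genes not called there were gata4.L (2.54 with Pax3 alone and 0.56 with Zic1 as well), pou4f4.S (2.90 and 0.82), cnrip1.L (-2.09 and -1.5), dbx1.S (-2.0 and -1.17) and astl2e.2.L (-1.84 and -0.48). For none of these did the test of the difference pass (smallest adjusted p = 0.9999). The ER list had 34 falls and 0 rises there, with a median of -0.76. The earliest zygotic list had 22 rises and 1 fall with a median of 1.02, against 15, 0 and 0.46 in Pax3 caps, a difference between lists that was not tested.

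**Figure D5:**
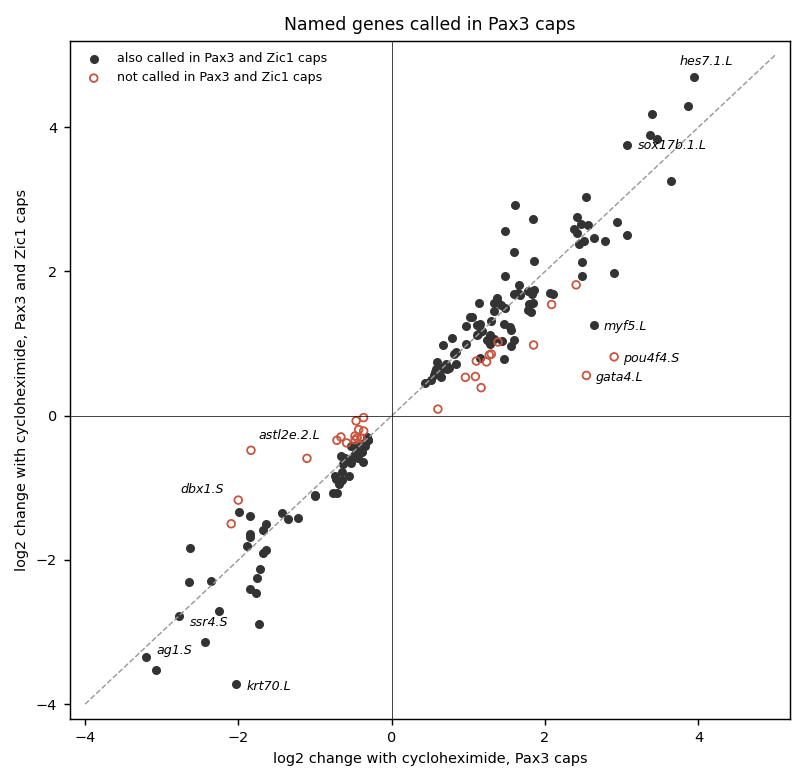
Log2 change with cycloheximide in Pax3 caps (x axis) against Pax3 and Zic1 caps (y axis) for the 174 called probe sets of the named genes, filled where called in both; the dashed line marks equal change. All points share their sign, and gata4.L, pou4f4.S and astl2e.2.L lie nearest to no change in Pax3 and Zic1 caps among the large changes. The genes were chosen on the x axis.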

How the data were processed

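Total RNA of the caps was hybridised to Affymetrix Xenopus laevis arrays. The deposited table of the authors holds a log2 value for each probe set; the scale was read from the values, which run from 0.798 to 13.2 with array means of 4.96 to 4.99. The submitters' processing notes name R 2.14.2; background, normalization and summary steps are not given in those notes or the labels. No scaling or filter was added. Of 32635 probe sets 96 Affymetrix controls were left out. The platform annotation gave 1 symbol for 15495 probe sets, several for 279 and none for 16765; RefSeq's genes (Xenopus_laevis_v10.1) held 15384 of the symbols and updated 2, and gave names only.

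Arrays 2.1 and 2.2 of Pax3 and Zic1 caps are 1 biological replicate and were averaged (SD across probe sets of the difference between the pair 0.183, against 0.541 to 0.63 between replicates of the Pax3 groups). All 5 groups were fitted with limma 3.58.1 in R 4.3.3 (lmFit, eBayes, two-sided; read with data.table, version 1.17.8), with the replicate number as a block (residual degrees of freedom 8, prior 3.4; without it 10 and 2.17). Samples of one number correlated at 0.428 to 0.864 in all groups once group means were removed; no label says what the numbers stand for. The fit was checked on data with known changes. The number of arrays limits the precision, and no depth applies.

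The members, the 34 gene lists (from textbook knowledge; each symbol by its brightest probe set, and lists share members) and the tests were chosen with earlier results of these data known, so lists are described by counts and medians without a test. Named genes are every pax3 and zic1 probe set, the 20 largest rises and 20 largest falls among called probe sets with 1 symbol and groups that do not overlap, and up to 4 called members per list and direction; others are said to be chosen after their values were seen. Alternatives were no replicate block, the 6 samples alone, an intensity trend, robust fitting, a low-level filter, quantile normalization, centring on ribosomal protein genes, and leaving out samples. A result on 1 adhesion gene is not reported here.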

Additional observations from a re-analysis of the deposited data

How the results depend on the processing

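The counts of called probe sets depend on the model. For cycloheximide in Pax3 caps, 3412 were called, 1778 higher and 1634 lower. Without the replicate block 283 were called (164 higher, 119 lower), fitting the 6 samples of Pax3 caps alone with the block gave 5554 (2977 and 2577), and centring on ribosomal protein genes gave 8915 (8454 and 461). Leaving out a sample or a replicate number of the Pax3 caps gave 602 to 2085 called, 375 to 1177 higher and 227 to 908 lower. These fits have fewer samples. An intensity trend, robust fitting, leaving out probe sets of low level, and quantile normalization moved these counts by less than 1.5 times. In Pax3 and Zic1 caps the 5344 calls became 517 without the block and 8339 with ribosomal centring; the fit of 6 samples gives no value for them. The difference of the drug effects had 0 calls in every fit that could give it. Of 174 called probe sets of named genes, all kept their direction in every fit that tested them (167 of them with low levels left out); 43 were called without the block and 67 without replicate 3. Of the values that were not called, 1 pax3.L probe set at -0.01 changed sign with quantile normalization (0.0435), with ribosomal centring (0.29) and with samples left out (-0.14 to 0.11), and another at 0.07 ran from -0.0499 to 0.192 with samples left out. The cause of these shifts was not tested. There were 3 replicates per group, and probe sets carry the names of the platform's annotation.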
